A study of Mus musculus with 4 samples.

Results

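The genes described here encode the slow and fast isoforms of the troponin subunits and of the myosin light chains of skeletal muscle. They were chosen by symbol, and 10 of the 23282 gene rows belong to them. There were 6 slow genes (Tnnc1, Tnni1, Tnnt1, Myl2, Myl3 and Myl6b) and 4 fast genes (Tnnc2, Tnni2, Tnnt3 and Mylpf). Each of the 10 had a single row, and all 10 passed the minimum normalized read count of 4 in every comparison.

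The study profiled the gastrocnemius muscle of male CDF1 mice by 3′ mRNA sequencing and crossed high-intensity treadmill exercise (E) with a tumor (T). Normal control [E(−)T(−)] mice had neither, normal exercise [E(+)T(−)] mice ran on a treadmill on alternate days, cancer control [E(−)T(+)] mice received CT26 murine colorectal cancer cells through the tail vein, and cancer exercise [E(+)T(+)] mice received both. Cells given this way enter the circulation directly, so no single primary tumor is defined. The labels give postnatal day 28 for every group, whereas the methods give an age of 4 weeks at purchase, with training and the tumor following. The series design names 10 mice per group, while 1 library was available for each group, and the paper's text describes 1 representative mouse. Whether a library holds the RNA of 1 mouse or of several was not settled. No group has a replicate library, so no p-value is given, and the RT-qPCR that the study ran on other animals was not used here. Changes named below for exercise or the tumor are differences between single libraries, and cannot be told apart from differences between animals. Tnnc1 and Myl6b were among the candidate genes that the study itself selected on these libraries by a 2-fold change, so their passing the 2-fold line is not independent evidence. The paper prints only part of that list, so other genes of the 10 may be in it. Values of the 4 libraries are always listed in the order of the groups above.

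Muscle contraction is switched on when calcium binds troponin, a complex on the thin filament. Its subunit C binds calcium, subunit I holds the filament in the off state, and subunit T ties the complex to tropomyosin. On the thick filament each myosin head carries a regulatory and an essential light chain that stiffen its lever arm. Slow and fast fibres use different genes for most of these parts, and the mouse gastrocnemius is built mainly of fast fibres. Tnnc1, Myl2 and Myl3 are shared by slow fibres and the ventricle of the heart, and Myl6b is an essential light chain of slow and developing muscle. The fast essential light chain is encoded by Myl1, which is outside the 10 genes and is given only as the partner of Myl3 and Myl6b.

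The 10 genes lie on 7 chromosomes of mm10, in GENCODE annotation. The slow troponin genes are Tnnc1 (chr14:31208312-31211729, plus strand), Tnni1 (chr1:135779434-135810989, plus strand) and Tnnt1 (chr7:4504570-4516382, minus strand). The slow light chain genes are Myl2 (chr5:122100951-122113472, plus strand), Myl3 (chr9:110741861-110769798, plus strand) and Myl6b (chr10:128494157-128498685, minus strand). The fast genes are Tnnc2 (chr2:164777161-164779967, minus strand), Tnni2 (chr7:142441808-142444410, plus strand), Tnnt3 (chr7:142498836-142516009, plus strand) and Mylpf (chr7:127208890-127214298, plus strand). Troponin I and T genes lie in linked pairs. Tnni2 and Tnnt3 are 54.4 kb apart with Lsp1 between them, Tnnt1 is 1.92 kb from Tnni3, the cardiac troponin I gene, and Tnni1 is 25.4 kb from Tnnt2, the cardiac troponin T gene.

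Upstream sequence is shown for the 3 slow troponin genes and Myl3 as examples of the slow class, and for the fast gene Mylpf as a contrast. RefSeq promoters (build GRCm38.p6, the assembly of mm10) were found for 8 of the 10 genes, Tnni2 and Tnnt3 being without an entry. Each run covers 218 bases, from base -250 to base -33 before the annotated start, on the strand of the gene. None overlaps a GENCODE exon, and those of Tnni1, Tnnt1, Myl3 and Mylpf lie inside the span of the GENCODE gene, which has longer transcripts. Capitals mark E-boxes (CANNTG, the site of myogenic bHLH factors), M-CAT motifs (CATTCC, the site of TEAD factors) and CArG boxes (the site of SRF), on both strands.
Tnnc1 (chr14:31208062-31208279): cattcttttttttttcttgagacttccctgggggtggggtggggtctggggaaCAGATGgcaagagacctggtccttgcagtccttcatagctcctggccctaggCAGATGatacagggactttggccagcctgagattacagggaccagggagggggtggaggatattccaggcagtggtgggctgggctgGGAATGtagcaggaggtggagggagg
Tnni1 (chr1:135799171-135799388): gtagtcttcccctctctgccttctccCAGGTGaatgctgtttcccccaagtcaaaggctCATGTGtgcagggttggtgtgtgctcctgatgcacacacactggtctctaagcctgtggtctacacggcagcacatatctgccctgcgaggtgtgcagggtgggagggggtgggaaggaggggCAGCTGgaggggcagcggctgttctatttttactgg
Tnnt1 (chr7:4516008-4516225): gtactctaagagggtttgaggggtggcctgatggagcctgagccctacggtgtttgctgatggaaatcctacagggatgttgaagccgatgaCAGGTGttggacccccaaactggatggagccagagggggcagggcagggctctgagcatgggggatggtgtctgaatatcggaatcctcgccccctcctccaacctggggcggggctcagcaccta
Myl3 (chr9:110763428-110763645): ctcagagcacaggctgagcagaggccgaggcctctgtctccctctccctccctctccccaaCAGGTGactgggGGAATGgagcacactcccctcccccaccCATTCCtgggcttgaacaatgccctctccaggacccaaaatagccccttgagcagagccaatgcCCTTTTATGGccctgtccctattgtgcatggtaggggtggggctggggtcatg
Mylpf (chr7:127211358-127211575): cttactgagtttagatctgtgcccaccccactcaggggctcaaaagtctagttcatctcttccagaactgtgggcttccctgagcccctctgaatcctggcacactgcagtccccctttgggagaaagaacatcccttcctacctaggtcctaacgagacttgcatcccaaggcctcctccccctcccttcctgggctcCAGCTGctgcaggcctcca
Tnni1 held 3 E-boxes, Tnnc1 held 2, and Tnnt1, Myl3 and Mylpf held 1 each, and 61.9% of 32851 mouse promoter windows of this length hold at least 1. An M-CAT motif was found once in Tnnc1 and 2 times in Myl3, against 11.4% of all windows. Myl3 also held 1 CArG box, which 1.29% of windows hold. No MEF2 site was present in these 5 windows (2.59% of all windows). Of the windows not printed, the pair for Myl2, at alternative starts, held 0 and 2 E-boxes, that of Myl6b held 1, and those of Tnnc2 and of another Tnni1 start, which overlap exons, held 2 each. These matches are a description of the letters.

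The libraries held 11269846, 13226252, 10647367 and 11026499 reads. These totals are sums over the gene rows of read counts rebuilt from the deposited values, so their last digits are not resolved. The 6 slow genes together took 0.0575%, 0.114%, 0.174% and 0.0748% of these reads, and the 4 fast genes took 8.27%, 8.17%, 4.77% and 5.54%. Slow transcripts were thus a small part of the set in every library. Of the reads of all 10 genes, 0.691% were slow in the normal control library, 1.37% after exercise alone, 3.51% with the tumor alone and 1.33% with both. In whole muscle, fewer fibres of a type and less RNA per fibre cannot be told apart.

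Tnnc1, the calcium-binding subunit of slow fibres, had normalized read counts of 748, 1692, 3871 and 1688. Tnni1, the slow inhibitory subunit, had 267, 777, 1519 and 775. Tnnt1, the slow tropomyosin-binding subunit, had 1113, 1855, 3489 and 1859. All 3 slow troponin genes were lowest in normal control and highest in cancer control, and the pair of exercised libraries lay between. In these exercised libraries the log2 difference, cancer exercise minus normal exercise, was -0.003 for Tnnc1 (95% counting interval -0.10 to 0.09), -0.004 for Tnni1 (-0.15 to 0.14) and 0.003 for Tnnt1 (-0.09 to 0.09). The order of these neighbouring levels was therefore not resolved at this depth.

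Myl2, the slow regulatory light chain, had normalized read counts of 1281, 3157, 4585 and 2080. Myl3, the slow essential light chain, had 3458, 4652, 6130 and 2474. Myl6b had 30.9, 67.2, 198 and 53.1, which rested on only 29, 83, 185 and 49 reads. Cancer control was the highest library for these genes too, so it was highest for 6 of 6 slow genes. Normal control was lowest for 5 of 6. The exception was Myl3, whose level was lowest in cancer exercise, by 0.48 on the log2 scale below normal control (0.41 to 0.56). For Myl6b the exercised libraries differed by less than counting error (log2 change with the tumor -0.33, interval -0.88 to 0.18).

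The fast genes were among the most abundant transcripts of the muscle. Tnnc2, the fast calcium-binding subunit, had normalized read counts of 403720, 340665, 112377 and 163507. It was the 2nd most abundant gene row in both libraries without a tumor, and ranked 10th in cancer control. Mylpf, the fast regulatory light chain, had 240553, 164074, 59104 and 111369. Both were highest in normal control and lowest in cancer control, with each neighbouring pair in the order separated by more than counting error.

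The other fast troponin subunits were nearly level. Tnni2, which encodes the fast inhibitory subunit, had normalized read counts of 202420, 221047, 198254 and 212042. Its whole range was 1.11-fold, and it was the most abundant gene row of the cancer control library. Tnnt3, which encodes fast troponin T, had 144028, 150248, 174515 and 175242, a range of 1.22-fold. By contrast the range was 3.59-fold for Tnnc2, 4.07-fold for Mylpf and 9.32-fold for the partner gene Myl1. The 4 fast genes therefore did not share a common profile.

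**Figure D1:**
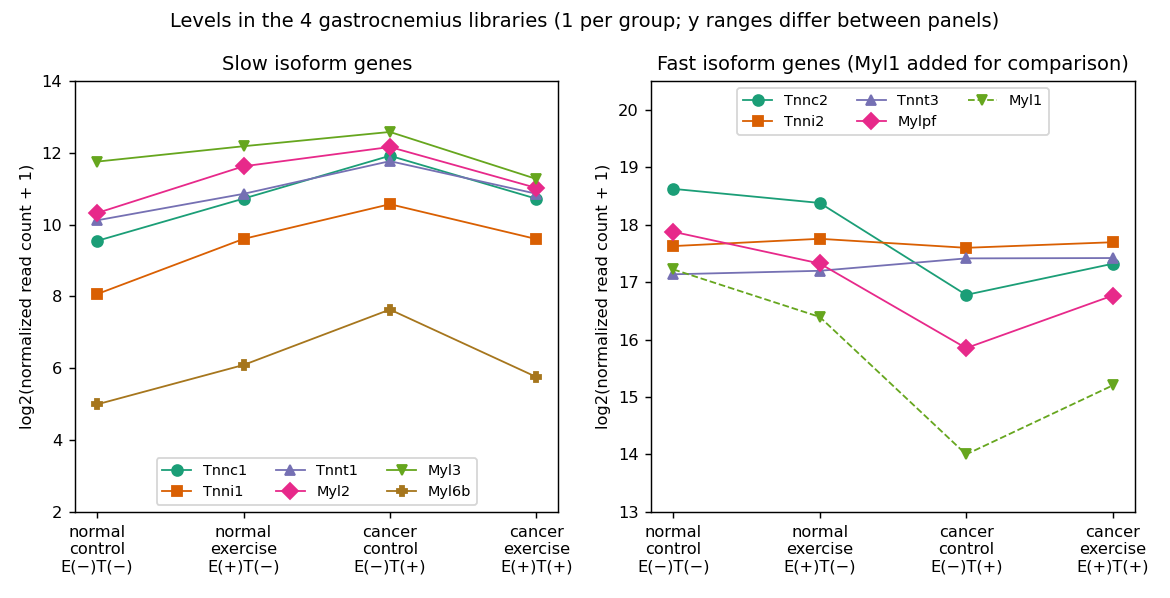
Levels of the slow genes (left) and fast genes (right), as log2 of the normalized read count plus 1, in the 4 libraries, 1 point per library, with lines drawn only to guide the eye and different y ranges in the panels. All 6 slow genes peak in cancer control, while Tnnc2, Mylpf and Myl1 are lowest there and Tnni2 and Tnnt3 stay within 1.22-fold.

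The slow share of each pair sets the slow gene against its fast partner in the same library, and so does not depend on how the libraries were scaled. Tnnc1 made up 0.185% of the Tnnc1 and Tnnc2 counts (95% Clopper-Pearson interval 0.171 to 0.199), 0.494% (0.473 to 0.516), 3.33% (3.22 to 3.44) and 1.02% (0.972 to 1.07). Myl2 made up 0.530%, 1.89%, 7.20% and 1.83% of the regulatory light chain pair. Cancer control thus had 12.9 Mylpf counts for each Myl2 count, against 188 in normal control. The share of Myl3 in its pair with Myl1 was 2.21%, 5.13%, 27.2% and 6.16%. Myl1 moved more than Myl3 here: in cancer control it was 9.32-fold below normal control, while Myl3 was 1.77-fold higher. In cancer exercise the share was above that of normal control although Myl3 itself was lower, with a count of 2474 against 3458. Myl6b against Myl1 ran from 0.0202% in normal control to 1.19% in cancer control.

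The pairs whose fast partner was level moved less. Tnni1 made up 0.132% of the troponin I pair in the first library, then 0.350%, 0.760% and 0.364%. Tnnt1 made up 0.767%, 1.22%, 1.96% and 1.05% of the troponin T pair. In all 6 pairs the share was lowest in normal control and highest in cancer control, and in each of these libraries the counting interval lay apart from those of the other 3. The Myl3 and Myl6b pairs have the same fast partner, Myl1, so the 6 pairs are not separate observations. Intervals and floors cover counting error only, and take no account of differences between animals.

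**Figure D2:**
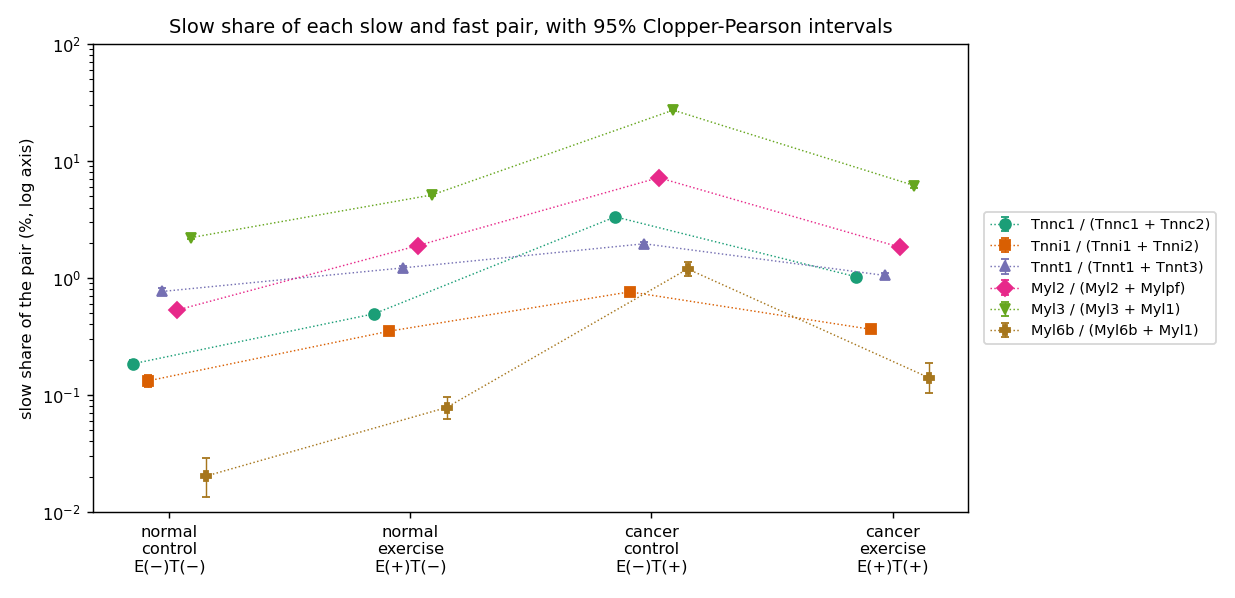
Slow share of each pair in percent, on a log axis, from the read counts of each library, with 95% Clopper-Pearson intervals (bars, often smaller than the marker) and dotted lines to guide the eye. Every pair is lowest in normal control and highest in cancer control, where Myl3 reaches 27.2% of its pair with Myl1. Myl1, the partner of both Myl3 and Myl6b, is 9.32-fold lower there than in normal control.

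The first comparison asked what exercise changed in mice without a tumor. Normal exercise had higher slow transcripts than normal control, and the fast genes stayed within 2-fold. The log2 change was 1.54 for Tnni1 (95% counting interval 1.34 to 1.75), 1.30 for Myl2 (1.21 to 1.40), 1.18 for Tnnc1 (1.05 to 1.30) and 1.10 for Myl6b (0.50 to 1.79). Tnnt1, at 0.74, and Myl3, at 0.43, did not reach 2-fold. In all, 4 of the 10 genes were at least 2-fold higher and 0 lower, while 21.5% of the 14518 genes that met the minimum differed at least 2-fold (9.44% higher and 12.1% lower). The median log2 change was 1.14 for the slow genes, -0.09 for the fast genes and -0.01 for all genes tested.

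Among the fast genes in this comparison, Mylpf had a log2 change of -0.55 (-0.56 to -0.54) and Tnnc2 of -0.25 (-0.25 to -0.24). Tnni2, at 0.13, and Tnnt3, at 0.06, lay on the other side of 0. The partner gene Myl1 was at -0.83. Slow minus fast, the medians differed by 1.23. The ratio of slow to fast gene was higher by 1.42 on the log2 scale in the troponin C pair, by 1.41 in the troponin I pair, by 0.68 in the troponin T pair and by 1.85 in the regulatory light chain pair.

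The second comparison asked what the tumor changed without exercise. Every slow gene was higher in cancer control than in normal control, and the fast genes divided into a pair that was over 3-fold lower and a pair that was level. Log2 changes were 2.64 for Myl6b (2.11 to 3.30), 2.50 for Tnni1 (2.31 to 2.71), 2.37 for Tnnc1 (2.26 to 2.49), 1.84 for Myl2 (1.75 to 1.93) and 1.65 for Tnnt1 (1.55 to 1.75). Myl3 was 1.77-fold higher, under the 2-fold line. Mylpf was 4.07-fold lower, with a log2 change of -2.03 (-2.04 to -2.01), and Tnnc2 was 3.59-fold lower, with -1.85 (-1.85 to -1.84). Tnnt3 was at 0.28. Tnni2 was at -0.03, a sign that turned under total read count (0.04) and median-of-ratios scaling (0.007).

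Counted together, 7 of the 10 genes differed at least 2-fold with the tumor in sedentary mice, 5 slow genes being higher and 2 fast genes lower. For comparison, 45.1% of all 14818 genes that met the minimum passed the same line, with 20.9% higher and 24.2% lower. The median log2 change was 2.11 for the slow and -0.94 for the fast genes, against -0.04 for all genes tested. The slow to fast ratio of the troponin C pair was higher by 4.22 on the log2 scale and that of the regulatory light chain pair by 3.86. The difference was 2.54 for troponin I and by 1.37 for troponin T, whose fast genes were level.

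The third comparison asked what exercise changed in mice with a tumor. Here the direction was the reverse of that in mice without a tumor for each slow gene: all 6 were lower in cancer exercise than in cancer control. The log2 change was -1.88 for Myl6b (-2.39 to -1.44), -1.31 for Myl3 (-1.38 to -1.24), -1.20 for Tnnc1 (-1.28 to -1.11) and -1.14 for Myl2 (-1.22 to -1.06). Tnni1 fell just short of the 2-fold line at -0.97, or 1.96-fold lower, and passed it under total read count (-1.04) and median-of-ratios scaling (-1.002). Tnnt1 was 1.88-fold lower. Thus 4 of the 10 genes were at least 2-fold lower and 0 higher, where 30.6% of 14491 genes passed the 2-fold line (15.6% higher and 15.1% lower). Mylpf was 1.88-fold higher (log2 change 0.91) and Tnnc2 1.45-fold higher (0.54), short of 2-fold. Tnni2 was at 0.10, and Tnnt3 at 0.006, which became -0.06 under total read count and -0.02 under median-of-ratios scaling.

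The median log2 change in that comparison was -1.17 for the slow genes, 0.32 for the fast genes and 0.005 for all genes tested. Both the second and the third comparison use the cancer control library, so a value particular to that library enters them with opposite signs. Normal control is the baseline of the first and the second comparison, so a value particular to it enters these with the same sign. The first and the third comparison share no library. For the 6 slow genes the effect of exercise with a tumor, less its effect without one, ranged from -1.65 for Tnnt1 to -2.98 for Myl6b. It was 1.47 for Mylpf, 0.79 for Tnnc2, -0.03 for Tnni2 and -0.06 for Tnnt3. No test of this difference was possible with 1 library per group.

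The fourth comparison asked what the tumor changed in exercised mice. Here 1 of the 10 genes differed at least 2-fold, Tnnc2, which was 2.08-fold lower in cancer exercise than in normal exercise (log2 change -1.06, -1.07 to -1.05). Of 14470 genes, 30.3% passed the line (13.9% higher and 16.3% lower). The slow light chains had log2 changes of -0.91 for Myl3 (-0.98 to -0.84), -0.60 for Myl2 (-0.68 to -0.52) and -0.33 for Myl6b. Mylpf was at -0.56, Tnni2 at -0.06 and Tnnt3 at 0.22. Slow minus fast, the medians differed by 0.14, against 3.04 for the tumor without exercise. The former value was 0.31 without Myl6b and 0.39 with Myl1 among the fast genes. Total read count scaling moved the median of all genes by -0.16 in this comparison and by 0.16 in the first, and it took Myl3 past 2-fold here, so that 2 genes were lower. The signs of the near-zero changes of Tnnt1 (-0.15 under total read count) and Tnnc1 (0.001 under median-of-ratios scaling) also turned.

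**Figure D3:**
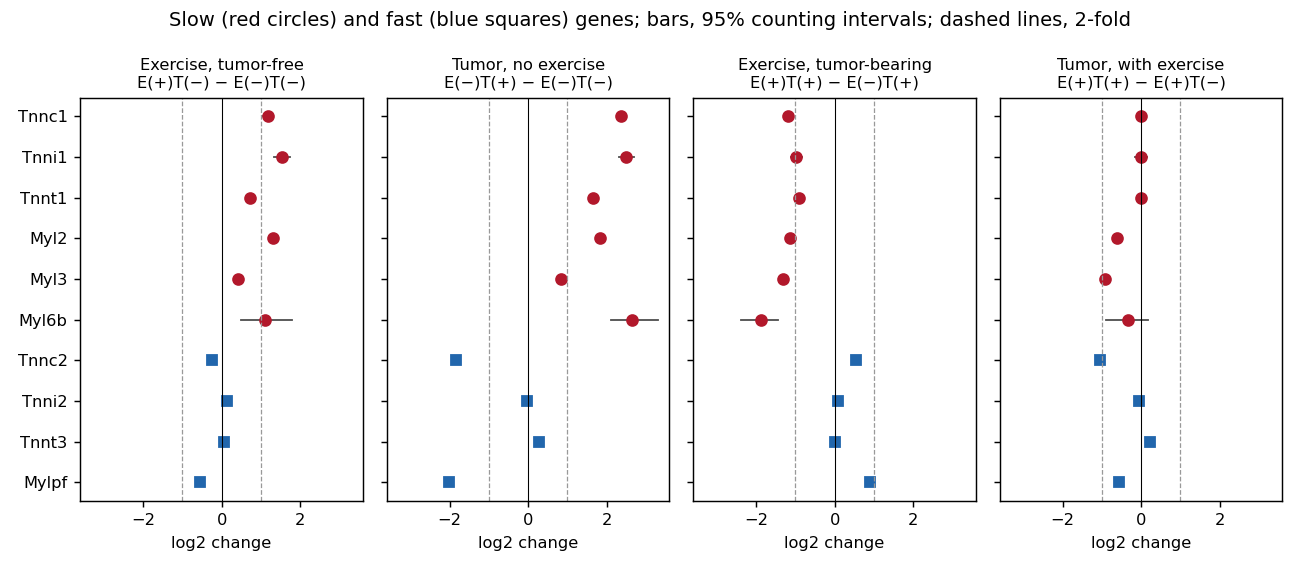
Log2 change of each slow gene (red circles) and fast gene (blue squares) in the 4 comparisons, with 95% counting intervals as bars (mostly hidden by the markers) and dashed lines at 2-fold. The slow genes lie right of 0 in the first 2 panels and left of 0 in the third, and in the last panel Tnnc1, Tnni1 and Tnnt1 lie within 0.004 of 0.

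Troponin C, I and T are needed in equal numbers in a troponin complex, so their transcripts were set against each other within each class. The ratio of Tnnc1 to Tnni1 was 2.80, 2.18, 2.55 and 2.18, a range of 0.36 on the log2 scale. Tnnt1 to Tnni1 was 4.17 in normal control and between 2.30 and 2.40 in the other libraries. Relative to Tnni1, Tnnt1 thus stood apart in the normal control library. In the fast class the ratio of Tnnc2 to Tnni2 was 1.99, 1.54, 0.567 and 0.771, a range of 1.82 on the log2 scale. Fast troponin C was more abundant than fast troponin I in the libraries without a tumor and less abundant in those with one.

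The ratio of Tnnt3 to Tnni2 stayed between 0.680 and 0.880, a range of 0.37 on the log2 scale. Mylpf to Tnni2 ran from 1.19 in normal control to 0.298 in cancer control. The fast light chains also moved apart, with 1.57 Mylpf counts per Myl1 count in normal control and 3.61 in cancer control. On the slow side Myl2 to Myl3 was lowest in normal control, at 0.370, and highest in cancer exercise, at 0.841. Counts of 3′ reads do not scale with transcript length, but the efficiency of priming can differ between genes, so the change of a ratio between libraries is more informative than the ratio itself.

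**Figure D4:**
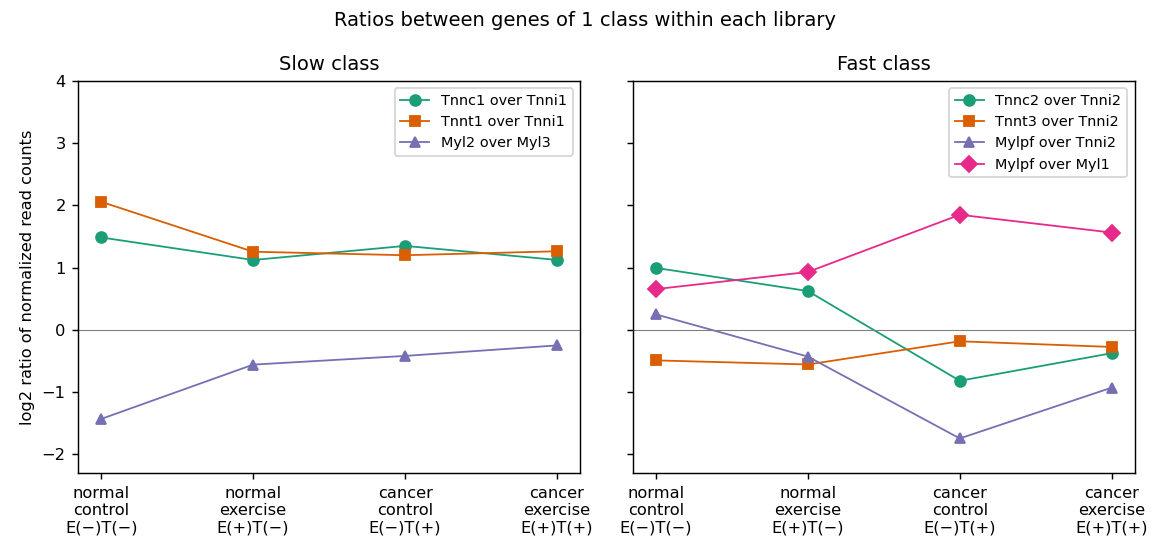
Log2 ratios of normalized read counts between genes of the slow class (left) and of the fast class (right) in each library, with lines to guide the eye. Tnnc1 over Tnni1 and Tnnt3 over Tnni2 range over at most 0.37, whereas Tnnc2 over Tnni2 is below 0 in the tumor libraries only and Mylpf over Tnni2 is above 0 in normal control only.

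Without exercise, most other genes of slow fibres were higher with the tumor, as the slow troponins were. Of 11 slow fibre genes outside the 10, 9 were at least 2-fold higher and 1 lower in cancer control than in normal control, with a median log2 change of 1.91 (45.1% of all genes tested differed at least 2-fold). The highest was Ankrd2, a stretch-responsive ankyrin repeat gene, at 4.59, and the lowest was Mb, which encodes myoglobin, at -2.00. With exercise in mice without a tumor 3 of these 11 were at least 2-fold higher and 1 lower, with a median of 0.67, where 9.44% of all genes were higher and 12.1% lower. In tumor-bearing mice 0 were higher and 1 lower with exercise, with a median of -0.41, where 30.6% of all genes passed 2-fold. With the tumor in exercised mice 4 of the 11 were higher and 0 lower (13.9% and 16.3% of all genes), with a median of 0.57, whereas 0 of the 6 slow troponin and light chain genes passed the line and their median was -0.17. Ankrd2 had normalized read counts of 820, 1860, 19810 and 21753, so it was as high in cancer exercise as in cancer control, unlike the slow troponins. Most of the list did not share this: 8 of the 11 were lower in cancer exercise than in cancer control, and 3 were higher. The slow myosin gene Myh7 had 379, 867, 1641 and 851, an order like that of the slow troponins.

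The 12 fast fibre genes, Myl1 included, moved in both directions. With the tumor in sedentary mice 6 were at least 2-fold lower and 2 higher, with a median log2 change of -1.01, where 24.2% of all genes were lower and 20.9% higher. The lowest was Casq1, the calcium-storing calsequestrin of fast fibres, at -4.62. The highest was Mylk2, the kinase that phosphorylates the regulatory light chain in skeletal muscle, at 1.88. Mylk2 had normalized read counts of 4072, 4070, 14961 and 12650, so it was higher in both tumor libraries, where Mylpf, the gene of its substrate, was lower. With exercise in mice without a tumor 0 of these 12 passed 2-fold in either direction, against 21.5% of all genes. In that comparison 11 of 12 had values below 0, with a median of -0.62.

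Of 13 other troponin, light chain and light chain kinase genes, 12 were in the files, and 10 met the minimum in the sedentary comparison. There the tumor group had 2 of them higher by 2-fold or more and 1 lower, a smaller part than the 45.1% of all genes that passed the line. Myl10 was the highest at 1.62, on 19 and 60 reads. Mylk4, a light chain kinase gene of muscle, was the lowest at -7.75, with normalized read counts of 7814, 8174, 35.4 and 785. Cardiac Tnnt2, which lies beyond Lad1 from Tnni1, had 30.9, 17.7, 85.6 and 79.0. Cardiac Tnni3, the neighbour of Tnnt1, had 8 reads in each sedentary library and 0 in each exercised one. Among 8 other thin filament genes 5 were lower by 2-fold or more and 1 higher in cancer control than in normal control (24.2% and 20.9% of all genes), from Actc1, the cardiac actin gene, at -4.46 to Lmod2, a leiomodin that helps thin filaments assemble, at 3.58.

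Of 19 genes that regulate fibre type, 3 were higher by 2-fold or more and 3 lower in cancer control than in normal control, with a median of -0.03, close to that of all genes tested, of which 45.1% passed the line. Mef2d was the highest at 2.49 and Mef2c the lowest at -2.94, both of them MEF2 transcription factors of muscle. Mef2d rested on 25 reads in the normal control library against 144 with the tumor. With exercise 0 of the 19 passed 2-fold upward and 3 downward in mice without a tumor, and 2 were higher and 4 lower in mice with one. Over all genes 21.5% and 30.6% passed the line in these comparisons, so the regulators were near or below the background in each.

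The counts can hold reads of other genes where annotated genes overlap, since the use of strand in counting was not stated. Tnnc1 overlaps Nisch, Tnnc2 overlaps Ube2c, Tnnt3 overlaps Prr33, Myl2 overlaps Ccdc63 and Myl3 overlaps Pth1r, each on the opposite strand. The tumor log2 change without exercise was 0.58 for Nisch against 2.37 for Tnnc1, and -1.07 for Pth1r against 0.83 for Myl3. Prr33 had at most 1832 normalized reads, Ube2c at most 102 and Ccdc63 at most 8.35. Myl6b ends 11 bases upstream of Myl6 on the same strand. Myl6 had normalized read counts of 3294, 3358, 2510 and 2326. Its log2 change with the tumor alone was -0.39, against 2.64 for Myl6b.

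Markers of other tissues were read in the same libraries. Of 7 heart muscle genes, Myl7 and Nppb had 0 reads in every library, Nppa had at most 3 and Ryr2 at most 2. The 7 genes together took 14.2, 28.4, 53.0 and 30.9 RPM (reads scaled to a common library total), highest in cancer control like the slow genes, and most of these reads were from Myh6. Myh6 had 118, 354, 476 and 267 reads, an order of libraries like that of the slow genes, and as it is nearly identical to the slow myosin gene Myh7 its reads are uncertain. The 5 skeletal muscle markers together took 62871, 55403, 40504 and 43432 RPM. Acta1, Ckm, Myh4 and Ttn were each lower in both tumor libraries than in normal control. Des went the other way, with 1288, 2677, 2574 and 2803 RPM. Over 6 red cell genes the sum was 20775, 4804, 20630 and 42252 RPM, and over 5 fibroblast genes 6531, 3825, 3168 and 3043. The sum of 5 fat genes was 3031, 1875, 1080 and 2146, that of 4 neutrophil genes 5.68, 13.7, 221 and 140, and that of 6 epidermal genes 16.7, 18.3, 67.4 and 7.26. The neutrophil sum was lowest in normal control and highest in cancer control, as 5 of the 6 slow genes were. Within it S100a8 peaked in cancer control (180 RPM, against 80.3 in cancer exercise). S100a9 was instead highest in cancer exercise (58.2, against 39.0 in cancer control). The epidermal sum, like the neutrophil sum, was highest in cancer control, and the part of these tissues in the results was not tested. The 5 smooth muscle genes summed to 168, 206, 71.1 and 116, the 4 endothelial genes to 188, 274, 209 and 216, and the 5 genes of developing or regenerating muscle to 102, 78.6, 105 and 99.5 RPM.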

How the data were processed

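Gastrocnemius RNA of 4 groups was sequenced in 4 QuantSeq 3′ libraries, 1 per group, with the group given by each title. The authors aligned single-end reads with Bowtie2 to mm10, took counts per gene from Bedtools coverage, and applied the quantile normalization of edgeR; versions, annotation and strand handling are not given in the sources used here. What was deposited is, for each gene, the log2 of its normalized count with 1 added. Changes are differences of these values, on a scale that understates changes of low genes, and a gene was counted as changed at 2-fold if its normalized count was 4 or more in either library. With 1 library per group no test was run.

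Read counts were rebuilt by fitting the quantile adjustment to the steps of the low values (dispersion 0.339), and 100% of values came from whole reads within 0.0006 on the log2 scale. The step was tested on data simulated through the same adjustment. That checks the inversion, not whether the authors applied this adjustment. Between 94.4% and 95.1% of values per library were tied to 1 read count, the rest being approximate, so the last digits of abundant genes are not resolved. The reads gave the 95% Clopper-Pearson intervals (scipy 1.17.1), which cover counting error only, and the rescaling by total, TMM and median of ratios. Depth sets a floor of 3 reads, at most 2.82e-05% of a library. Alternatives were pseudocounts of 0 and 4, no minimum or 16, and thresholds of 1.5-fold and 4-fold.

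The genes and lists were chosen with earlier results of these data known. Named genes are the 10 members, Myl1, the linked cardiac genes Tnni3 and Tnnt2, the highest and lowest gene of each list in the tumor comparison without exercise, and the 5 nearest profiles of each class, of which 1 is not reported here. Other genes were named after their values were seen.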

Additional observations from a re-analysis of the deposited data

Results flagged for a closer look

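With exercise, 3 of the 10 genes differed at least 2-fold in opposite directions in mice without and with a tumor. Over all genes tested, 21.5% differed at least 2-fold with exercise without a tumor and 30.6% with one. The share of all genes that passed in opposite directions was not counted, so these 3 have no background to be read against. The effect of exercise with a tumor, less its effect without one, was -2.37 on the log2 scale for Tnnc1, -2.44 for Myl2 and -2.98 for Myl6b. Tnni1 would join them under total read count and median-of-ratios scaling, where it passed 2-fold in both comparisons. All of these are slow genes, higher with exercise in the absence of a tumor and lower with exercise in its presence. With 1 library per group the difference was not tested, and Tnnc1 and Myl6b were candidates that the study picked on these libraries. Myl2 also passed 2-fold in the comparisons the study used, at 1.30, 1.84 and -1.14, and the paper prints only part of its list. The study also looked for genes with opposite exercise effects in these groups, so none of the 3 is independent evidence.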

How the results depend on the processing

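No paired analysis was possible because each group had 1 library. Counts of changed genes stayed within 1.5 times under 29 of 36 alternatives. A 4-fold threshold left 0 of the 10 genes for exercise without a tumor, 4 for the tumor without exercise, 0 for exercise with a tumor and 0 for the tumor with exercise. A 1.5-fold threshold gave 7 and 3 in the last pair, and total read count scaling gave 2 in the last one. The share of all genes past 4-fold or 1.5-fold was not counted, so the counts at these thresholds only describe the 10 genes. The slow minus fast median moved beyond counting error under 3 of 20 alternatives. Among these, total read count scaling shifts both classes alike and could not move it. For the tumor without exercise it was 2.78 without Myl6b and 3.95 with Myl1 among the fast genes, and for exercise with a tumor it was -1.71 with Myl1, in the direction reported each time. For the tumor with exercise it was 0.31 without Myl6b and 0.39 with Myl1, against 0.14. Tnni1 passed 2-fold for exercise with a tumor under total read count and median-of-ratios scaling. Depth limits Myl6b most, with 29 reads in normal control.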

Other observations

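The log2 profile of each gene over the 4 libraries was centred on its mean and set against the mean profile of the slow genes and of the fast genes, among 10485 genes whose normalized count was 16 or more in every library. Outside the 10 genes, genes near the slow mean included Rdh10, at a root mean square distance of 0.05 on the log2 scale, Dnajc17 (0.08), Dido1 (0.11) and Sh2d3c (0.11). Among the slow genes themselves the distance was smallest for Myl2 (0.14) and largest for Myl3 (0.49). Nearest to the fast mean were Sulf1 (0.02), Cmklr1 (0.02), Entpd5 (0.02), Rbms2 (0.03) and Zfp397 (0.03), all far closer than any of the 4 fast genes, whose distances ran from 0.33 for Tnni2 to 0.47 for Tnnt3. The mean of the fast class therefore describes none of its members. The slow mean also had outside genes closer to it than any slow gene. In order of distance to that mean, Myl2 ranked 19th and Myl3 1332nd of the 10485 genes. With only 4 libraries behind each profile, such likeness is a description.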
